A study of Arabidopsis thaliana with 6 samples.

Results

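Transcripts of 5 Arabidopsis thaliana genes of auxin, gibberellin and ethylene signalling were followed on 6 two-colour arrays, namely IAA29 (AT4G32280), HAT2 (AT5G47370), GID1B (AT3G63010), GID1C (AT5G27320) and EIN3 (AT3G20770). The genes were taken by name, with earlier results of these data known, and each has an annotated feature on the array. They are 5 of the 7234 genes that could be named, and 7 other auxin and gibberellin genes with such a feature are described further below. Whole Col-0 wild-type seedlings spent 60 h under continuous red light of 24 μmol m-2 s-1 (3 arrays), and whole seedlings of the pifQ mutant (pif3pif4pil5pil6) spent 60 h in darkness (3 arrays). Dark-grown Col-0 of 60 h was the second channel of every array, so each value is the ratio of a sample over dark Col-0. All 3 kinds of seedling were sown on medium with 1% sucrose, kept for 3 days at 4 °C in darkness and given 6 h of white light to induce germination. Replicates of a group were grown and harvested independently, per the series' design text, and each was hybridised once.

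Auxin, gibberellin and ethylene together set how far the hypocotyl of a seedling elongates and how tightly its apical hook stays closed. Auxin acts by removing Aux/IAA repressors from the response factors that they hold inactive, gibberellin acts through GID1 receptors that target the growth-repressing DELLA proteins for destruction, and ethylene acts by stabilising the transcription factor EIN3. The PIF proteins, bHLH transcription factors that phytochrome removes in light, promote growth in darkness, and in pifQ the genes PIF1 (also PIL5), PIF3, PIF4 and PIF5 (also PIL6) are mutated. IAA29 is an Aux/IAA repressor, HAT2 is a class II homeodomain-leucine zipper factor known as an early auxin-induced gene, GID1B and GID1C are gibberellin receptors, and EIN3 is a central activator of ethylene responses.

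The arrays could be checked only in part. None of the 4 mutated PIF genes had a named feature (0 of 4), so the genotype could not be read from its own transcripts. Of 4 leaf mesophyll markers 2 were measured. LHCB4.1, a photosystem II antenna gene, stood at log2 3.68 to 4.31 in red-light Col-0 and 2.06 to 2.76 in dark pifQ, and RCA, the Rubisco activase gene, at 3.59 to 3.74 in red-light Col-0 and 0.90 to 2.44 in dark pifQ. Of 2 root hair markers, EXPA18 was measured, at -0.57 to 0.24 in red-light Col-0 and 0.13 to 0.37 in dark pifQ. Their part in the results below was not tested. Across genes, which are not independent replicates, r between arrays of 1 group was 0.812 to 0.913 in red light and 0.423 to 0.615 in pifQ. The pifQ replicate 3 correlated with the other pifQ arrays at 0.506 and 0.423 but with the red light arrays at 0.593 to 0.695. The pifQ replicates 1 and 2 correlated with each other at 0.615. With the red light arrays replicate 1 correlated at 0.561 to 0.591 and replicate 2 at 0.453 to 0.546, so each was also closer to them than to pifQ replicate 3. Where a result rests on pifQ replicate 3, it is given with and without that array. These are ratios of RNA from whole seedlings, so fewer cells of a type and less RNA per cell cannot be told apart.

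All 5 genes had lower transcript levels in red-light Col-0 than in dark Col-0, and all 5 passed the test, IAA29 with the largest decrease of the 5 and EIN3 with the smallest. In dark pifQ, IAA29 and GID1C fell, GID1C only near the threshold, while HAT2, GID1B and EIN3 did not pass. Throughout, a gene passed where limma's adjusted p was under 0.05, with Benjamini-Hochberg adjustment over all 7234 genes. Of all genes, 19% were called lower and 18.8% higher in red light, and 7.04% lower and 4.59% higher in pifQ. The 5 genes were below 0 on 3 of 3 red light arrays, as were 36.3% of all genes, and all but HAT2 were below 0 on 3 of 3 pifQ arrays, as were 28% of all genes. The 5 genes were chosen with these results known, so their counts describe them and are no evidence that hormone genes stand apart.

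**Figure D1:**
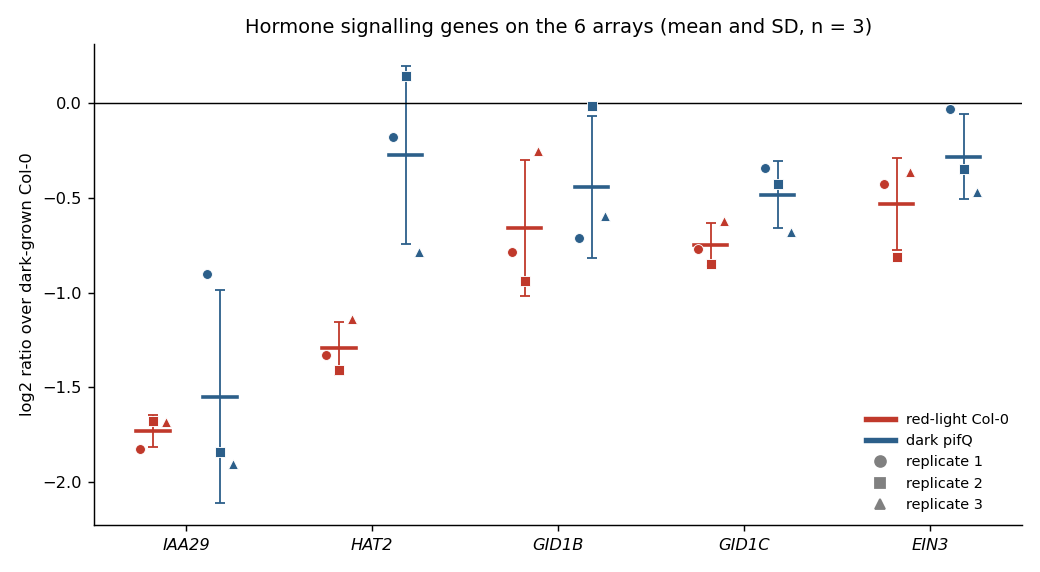
Log2 ratio over dark-grown Col-0 (y axis) of the 5 signalling genes on each array, with red-light Col-0 on the left and dark pifQ on the right of each gene; thick bars are means, thin bars are SD (n = 3), and the line at 0 marks the dark Col-0 level. IAA29 was low in both groups, whereas the HAT2 values of red-light Col-0, -1.41 to -1.14, all lay below those of dark pifQ, -0.79 to 0.14. The same held for 10.6% of all genes.

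IAA29 was the most strongly lowered of the 5 genes on every one of the 6 arrays. In red-light Col-0 its log2 ratios were -1.82, -1.68 and -1.68, which put its transcript at 28.2%, 31.2% and 31.2% of the dark Col-0 level. In dark pifQ they were -0.90, -1.84 and -1.91, or 53.6%, 28.0% and 26.7% of the dark Col-0 level. The red light arrays were close to each other, and the pifQ range enclosed them, with pifQ replicate 1 higher than all other arrays.

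IAA29 fell 3.31-fold in red-light Col-0 (log2 -1.73 ± 0.08, SD, n = 3) with an adjusted p of 0.000265 by limma. It fell 2.92-fold in dark pifQ (log2 -1.55 ± 0.56, SD, n = 3) with an adjusted p of 0.00299 by limma. Ranked by mean ratio among 7234 genes, it was the 66th lowest in red light and the 22nd lowest in pifQ. On single arrays it ranked 71, 68 and 72 from the lowest in red light, and 172, 15 and 22 in pifQ. Both calls held in all 15 alternative analyses. The difference between red-light Col-0 and dark pifQ was log2 -0.18 (95% interval -0.78 to 0.42, adjusted p = 0.762 by limma). Its sign was not settled, since without pifQ replicate 1 the difference was 0.14.

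HAT2 was strongly lowered in red light and showed no settled change in dark pifQ. In red-light Col-0 its log2 ratios were -1.33, -1.41 and -1.14, or 39.8%, 37.6% and 45.4% of the dark Col-0 level. In dark pifQ they were -0.18, 0.14 and -0.79, or 88.4%, 110.3% and 58.0%. The groups did not overlap, with all red light values below all pifQ values, as for 10.6% of all genes. Within pifQ, replicates 1 and 2 lay near the dark Col-0 level and replicate 3 was well below it.

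HAT2 fell 2.45-fold in red-light Col-0 (log2 -1.29 ± 0.14, SD, n = 3, adjusted p = 0.000634 by limma), as the 135th lowest of 7234 genes. In dark pifQ its mean was -0.27 ± 0.47 (SD, n = 3), with a 95% interval of -0.66 to 0.11 and an adjusted p of 0.323 by limma. That mean was -0.02 without pifQ replicate 3 and -0.48 without pifQ replicate 2 (adjusted p = 0.957 and 0.15 by limma).

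The difference in HAT2 between red-light Col-0 and dark pifQ was the only one among the 5 genes in which the groups did not overlap, and it was log2 -1.02 (SE 0.24, 95% interval -1.56 to -0.48). Of all genes, 10.6% had all red light arrays below all pifQ arrays. The unadjusted p was 0.00225 and the adjusted p 0.0578, so HAT2 missed the threshold that 1.16% of all genes passed as lower, although it was the 74th lowest of 7234 genes. Without pifQ replicate 3, where HAT2 was lowest among the pifQ arrays (-0.79), the difference was -1.28 and passed, at an adjusted p of 0.0109 by limma. HAT2 also passed with arrays scaled to the same spread (adjusted p = 0.0400) and with array weights (0.00952). Those weights were uneven, at 5.60, 0.65 and 1.04 for red light replicates 1, 2 and 3. For pifQ replicates 1, 2 and 3 they were 1.06, 0.51 and 0.49, so that fit leans on red light replicate 1. HAT2 passed in 4 of its 14 alternatives, over which adjusted p by limma ranged between 0.00952 and 0.292. Of these 4, 1 left out the 25% of genes with the smallest ratios (adjusted p = 0.0417 by limma). That filter picks genes by the tested ratio itself, so this pass adds no separate evidence. With 1 array left out it passed in 1 of 6 fits, and adjusted p by limma reached 0.195 in the others.

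The gibberellin receptor genes GID1B and GID1C had similar mean ratios, with a tighter spread in GID1C. GID1C had log2 ratios of -0.77, -0.85 and -0.62 in red-light Col-0, against -0.34, -0.43 and -0.68 in dark pifQ. All 6 values were below 0, and only pifQ replicate 3 fell among the red light values. GID1B had -0.79, -0.94 and -0.25 in red-light Col-0, against -0.71, -0.01 and -0.60 in dark pifQ. Its groups overlapped, and red light replicate 3 and pifQ replicate 2 stood nearest to the dark Col-0 level.

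GID1C fell 1.68-fold in red-light Col-0 (log2 -0.75 ± 0.11, SD, n = 3, adjusted p = 0.00138 by limma), to between 55.6% and 65.0% of the dark Col-0 level. This call held in all 15 alternatives. In dark pifQ it fell 1.40-fold (log2 -0.48 ± 0.18, SD, n = 3, adjusted p = 0.0312 by limma), to between 62.3% and 79.0%. The pifQ call was near the threshold and ended without each of pifQ replicates 1, 2 and 3 (adjusted p = 0.0773, 0.0848 and 0.103) and without red light replicate 1 (0.0715). It also ended when the spread was taken from the pifQ arrays alone (0.0965). Altogether the pifQ call of GID1C held in 8 of 15 alternatives. Red-light Col-0 against dark pifQ gave log2 -0.26 (95% interval -0.63 to 0.11, adjusted p = 0.44 by limma).

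GID1B fell 1.58-fold in red-light Col-0 (log2 -0.66 ± 0.36, SD, n = 3, adjusted p = 0.0179 by limma). That call ended without red light replicate 1 (log2 -0.59, adjusted p = 0.109) and without red light replicate 2 (-0.52, 0.113). In dark pifQ its mean was -0.44 ± 0.37 (SD, n = 3), with an adjusted p of 0.138 by limma and a 95% interval of -0.84 to -0.04, which is not adjusted for the number of genes. Red-light Col-0 against dark pifQ gave log2 -0.22 (95% interval -0.78 to 0.34, adjusted p = 0.687 by limma). With 1 array left out this difference was closest to 0 (-0.0038) when pifQ replicate 2 was omitted and largest in size (-0.42) when red light replicate 3 was omitted. Omitting red light replicate 2 gave -0.079, and omitting pifQ replicate 1 gave -0.35. The mean difference of GID1B minus GID1C on the same array was 0.09 ± 0.25 in red-light Col-0, against 0.04 ± 0.39 in dark pifQ (SD, n = 3), smaller than its spread in both groups. Of the 3 listed receptor genes 2 were measured, and GID1A had no named feature.

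EIN3 had the smallest decrease of the 5 genes in red light. Its log2 ratios were -0.42, -0.81 and -0.36 in red-light Col-0, against -0.03, -0.35 and -0.47 in dark pifQ. All 6 values were below 0, the groups overlapped, and pifQ replicate 1 stood at the dark Col-0 level.

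EIN3 fell 1.45-fold in red-light Col-0 (log2 -0.53 ± 0.24, SD, n = 3, adjusted p = 0.0147 by limma), to between 57.0% and 77.9% of the dark Col-0 level. The call ended without red light replicate 1 (adjusted p = 0.0586) and without red light replicate 2 (0.102). In dark pifQ the mean was -0.28 ± 0.22 (SD, n = 3), with a 95% interval of -0.59 to 0.02 and an adjusted p of 0.208 by limma. Red-light Col-0 against dark pifQ gave log2 -0.25 (95% interval -0.68 to 0.18, adjusted p = 0.534 by limma). Omitting red light replicate 2 gave -0.11, and omitting pifQ replicate 1 gave -0.13.

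Ordered by mean ratio in red-light Col-0, the genes ran IAA29 (-1.73), HAT2 (-1.29), GID1C (-0.75), GID1B (-0.66) and EIN3 (-0.53). On the same array IAA29 minus HAT2 was -0.43 ± 0.14 and HAT2 minus GID1C was -0.55 ± 0.02 (SD, n = 3), both with the same sign on 3 of 3 arrays. GID1C and GID1B did not differ beyond their spread, nor did GID1B and EIN3 (GID1B minus EIN3 -0.13 ± 0.24). GID1C minus EIN3 was below 0 on 3 of 3 red light arrays, at -0.34, -0.04 and -0.26, and on 3 of 3 pifQ arrays, at -0.31, -0.08 and -0.21.

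In dark pifQ the order by mean ratio was IAA29 (-1.55), GID1C (-0.48), GID1B (-0.44), EIN3 (-0.28) and HAT2 (-0.27). HAT2 was thus the second lowest of the 5 means in red-light Col-0 and the highest in dark pifQ. IAA29 minus HAT2 was -0.49, -0.27 and -0.54 on red light replicates 1, 2 and 3, against -0.72, -1.98 and -1.12 on pifQ replicates 1, 2 and 3. HAT2 minus EIN3 was 0.01 ± 0.42 in dark pifQ, and GID1B minus EIN3 was -0.16 ± 0.51 (SD, n = 3), so these neighbours in the order did not differ beyond their spread.

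**Figure D2:**
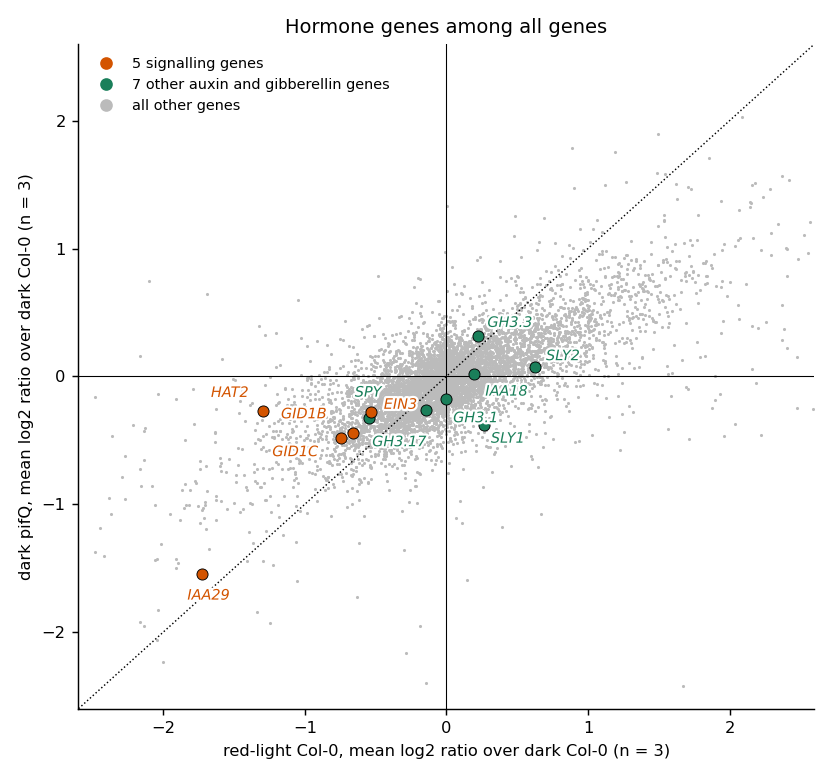
Mean log2 ratio over dark Col-0 in red-light Col-0 (x axis) and dark pifQ (y axis), n = 3 arrays each, for the 5 signalling genes (orange), 7 other auxin and gibberellin genes (green) and all other genes (grey); 50 genes lie outside the plotted range and the dotted line marks equal ratios. IAA29 lies near that line and HAT2 (-1.29 and -0.27) well above it; both axes have dark Col-0 as their common second channel, so the slope of the cloud is not read as a result.

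Beyond these 5 genes, few other genes of the 3 pathways had a named feature. Lists of 178 auxin, 35 gibberellin and 59 ethylene genes held 6, 5 and 1 measured genes, EIN3 being the only one for ethylene. No auxin receptor (0 of 6), auxin response factor (0 of 15) or SAUR growth gene (0 of 80) was measured, and no gene of gibberellin metabolism (0 of 17) or ethylene synthesis (0 of 14). Of the 12 measured genes, 6 fell and 1 rose in red-light Col-0, where 37.8% of all genes passed, but 5 of the 6 are the genes described above. Of the 7 others, 1 fell and 1 rose. In dark pifQ 2 of the 12 fell and 0 rose, where 11.6% of all genes passed, and 0 of the 7 others passed. The median log2 ratio of the 7 others was 0.20 in red-light Col-0, against -0.17 in dark pifQ, beside medians of -0.02 and -0.04 over all genes. The 7 are what is left once the 5 lowered genes, chosen with results known, are taken out. That choice raises their median, so it is given as description. With the 5 chosen genes included the medians were -0.34 in red-light Col-0, against -0.28 in dark pifQ.

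Among the auxin genes, the decrease of IAA29 was not shared by IAA18, the other measured member of the Aux/IAA family of 29 listed genes. IAA18 had log2 ratios of 0.49, 0.10 and 0.00 in red-light Col-0, against -0.20, 0.19 and 0.06 in dark pifQ, with adjusted p of 0.283 and 0.944 by limma. The GH3 enzymes conjugate auxin to amino acids, and none of the 3 measured GH3 genes passed in red light or in pifQ. GH3.1 averaged 0.00 ± 0.09 in red-light Col-0, against -0.17 ± 0.17 in dark pifQ, and GH3.17 averaged -0.14 ± 0.08 in red-light Col-0, against -0.26 ± 0.22 in dark pifQ (SD, n = 3 each).

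Of the 12 hormone genes, GH3.3 varied most among the pifQ arrays (SD 0.71, n = 3). It had log2 ratios of -0.02, 0.11 and 0.58 in red-light Col-0, and of 1.02, 0.31 and -0.39 in dark pifQ. Its adjusted p was 0.498 in red light and 0.415 in pifQ by limma, and its groups overlapped.

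Among the gibberellin genes that act after the receptors, SLY2 and SPY moved in opposite directions in red light. SLY1 and SLY2 (SNEEZY) encode F-box proteins that mark DELLA proteins for destruction, and SPY (SPINDLY) encodes a glycosyltransferase that modifies DELLA proteins and restrains gibberellin responses. SLY2 had log2 ratios of 0.34, 0.96 and 0.59 in red-light Col-0, and of -0.28, 0.45 and 0.03 in dark pifQ. It rose 1.54-fold in red light (log2 0.63 ± 0.31, SD, n = 3, adjusted p = 0.0176 by limma), a call that ended without red light replicate 2 (0.46, adjusted p = 0.117) and without red light replicate 3 (0.65, 0.0575).

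SPY had log2 ratios of -0.59, -0.80 and -0.24 in red-light Col-0, and of -0.64, 0.04 and -0.38 in dark pifQ. It fell 1.46-fold in red light (log2 -0.55 ± 0.28, SD, n = 3, adjusted p = 0.0262 by limma), and the call ended without red light replicate 1 (adjusted p = 0.128) and without red light replicate 2 (0.153). Quantile normalization also ended the red light calls of SLY2 (adjusted p = 0.0634) and SPY (0.0586), and testing all features ended that of SPY (0.0602). SLY1 had log2 ratios of 0.13, 0.56 and 0.10 in red-light Col-0, and of -0.06, -1.15 and 0.08 in dark pifQ. It passed in neither comparison, with adjusted p of 0.397 in red light and 0.307 in pifQ by limma, and pifQ replicate 2 stood apart from its other arrays. All its red light values lay above all its pifQ values, as for 13.2% of all genes. Of the 8 listed DELLA and turnover genes only these 3 were measured, so no listed DELLA gene had a named feature.

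**Figure D3:**
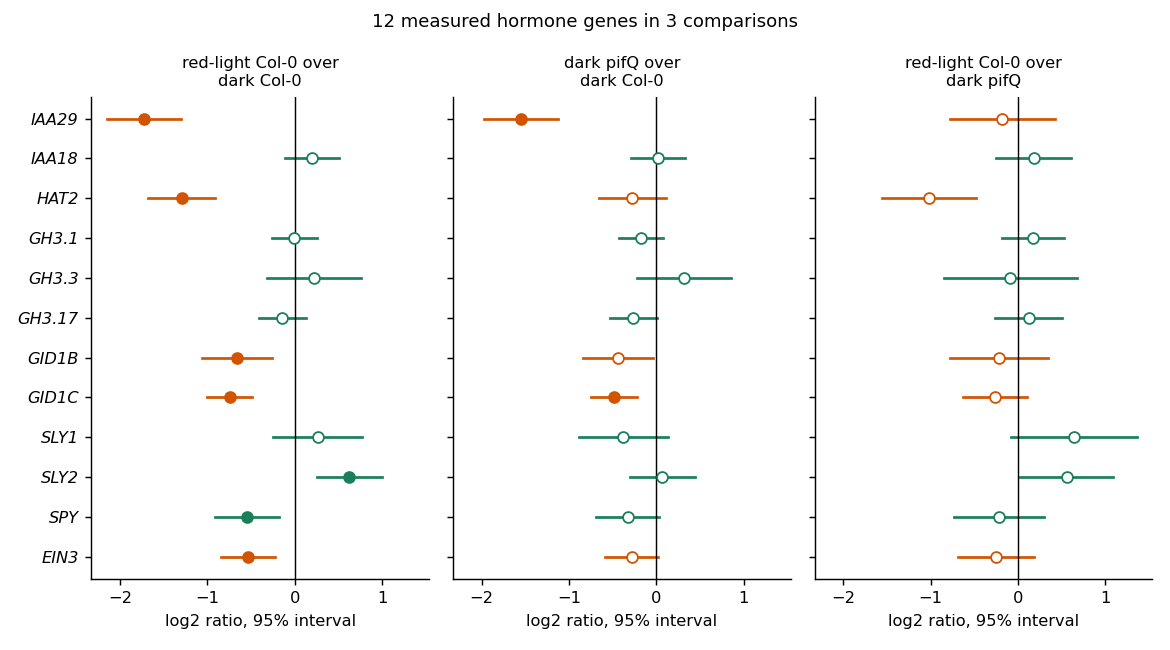
Log2 ratios (x axis) of the 12 measured hormone genes with 95% intervals from limma, with a panel each for red-light Col-0 over dark Col-0, dark pifQ over dark Col-0, then red-light Col-0 over dark pifQ; filled points passed an adjusted p of 0.05, with the 5 signalling genes in orange and the other 7 in green. In the third comparison the HAT2 interval, -1.56 to -0.48, lies farthest from 0, and none of the 12 genes passed.

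Between red-light Col-0 and dark pifQ directly, 0 of the 12 genes passed by limma, where 3.36% of all genes did, 1.16% lower and 2.2% higher in red light. The unadjusted p by limma was 0.00225 for HAT2 and 0.0425 for SLY2. How many of all genes reach such values without adjustment was not counted, so these are given as description. SLY2 differed by log2 0.56 (95% interval 0.02 to 1.09, adjusted p = 0.251 by limma). The median difference was 0.17 over the 7 others and -0.14 over the 12 genes, beside 0.04 over all genes. For the other 10 genes the intervals included 0, from -0.85 to 0.67 for GH3.3 and from -0.08 to 1.36 for SLY1.

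The 3 genes nearest to each of the 5, by the root mean square difference of log2 ratios over the 6 arrays, were also noted. HAT2 had AT1G08050 (0.17), AT4G33860 (0.18) and AT1G07750 (0.20) nearest to it. They averaged -1.16, -1.08 and -1.10 in red-light Col-0, against -0.29, -0.29 and -0.33 in dark pifQ.

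IAA29 had no comparably close gene, its nearest being AT5G07030 at 0.27, AT1G62510 at 0.36 and AT5G10770 at 0.37. AT5G07030 averaged -1.91 ± 0.16 in red-light Col-0, against -1.43 ± 0.26 in dark pifQ (SD, n = 3 each). The nearest to GID1C was AT4G32285, at 0.05, with means of -0.70 in red-light Col-0, against -0.48 in dark pifQ. AT4G32285 is the gene next to IAA29 in the annotated gene order.

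For GID1B the nearest were JKD, a zinc finger transcription factor gene known from root patterning (0.10), AT3G18060 (0.12) and AT3G18770 (0.12). For EIN3 they were AT3G02750 (0.07), AT2G39440 (0.08) and AT1G03280 (0.10). Genes with small ratios have many close neighbours, and values on 1 array share its labelling and hybridisation, so these distances are given as a description. Any likeness on a single array was fixed by the choice of these genes over the same 6 arrays.

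**Figure D4:**
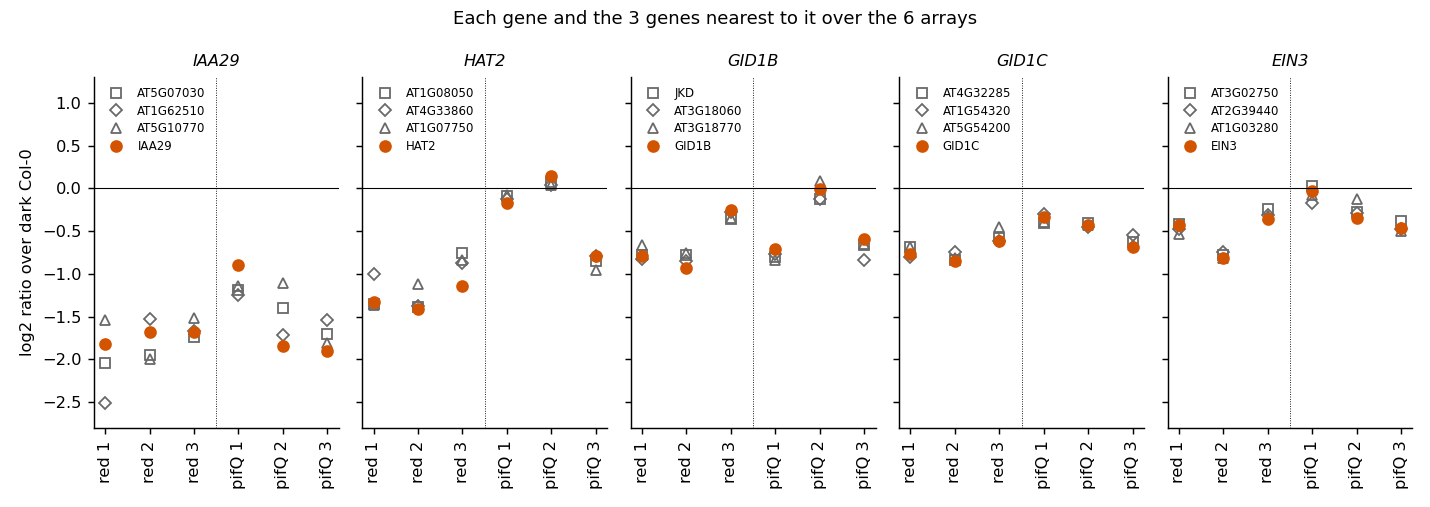
Log2 ratio over dark Col-0 (y axis) on the 6 arrays (x axis, red-light Col-0 left and dark pifQ right) of each of the 5 genes (orange circles) and the 3 genes nearest to it (open symbols). The open symbols lie near the circles because the genes were picked for that; their root mean square distances on the log2 scale were 0.27 to 0.37 for IAA29 and 0.17 to 0.20 for HAT2.

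Of the 10 protein-coding genes that flank the 5 in the TAIR10.1 gene order, 4 had a named feature. The genes on either side of HAT2, AT5G47360 and AT5G47380, averaged 0.46 ± 0.048 and 0.53 ± 0.39 in red-light Col-0 (SD, n = 3 each). In red light both means thus stood above 0 where that of HAT2 stood below it. In dark pifQ they averaged 0.15 ± 0.34 and 0.20 ± 0.095 (SD, n = 3 each), where HAT2 showed no settled change. AT5G27330, next to GID1C, averaged 0.76 ± 0.14 in red-light Col-0, against 0.41 ± 0.32 in dark pifQ (SD, n = 3 each). AT4G32285 beside IAA29 is given above.

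**Figure D5:**
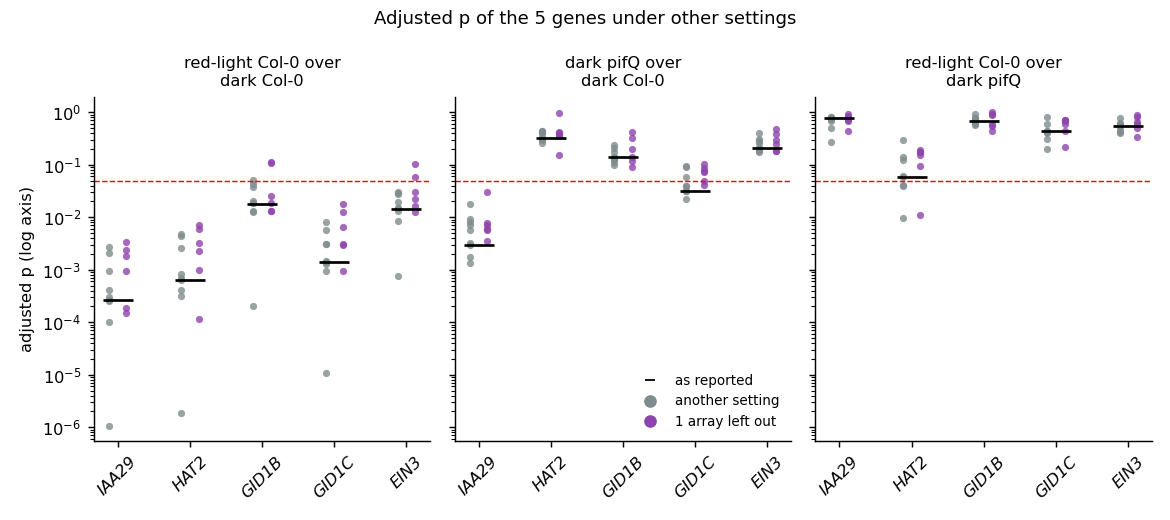
Adjusted p (y axis, log scale) of the 5 genes in the 3 comparisons as reported (black bars), under other settings (grey) and with 1 array left out (purple); the dashed line marks 0.05. The calls of IAA29, HAT2 and GID1C in red light and of IAA29 in pifQ lay below the line in every setting, whereas GID1B and EIN3 in red light, GID1C in pifQ and HAT2 between red-light Col-0 and dark pifQ had values on both sides of it.

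The sample was labelled with Cy5 and dark Col-0 with Cy3 on all 6 arrays with no dye swap, so in the ratios over dark Col-0 a gene's dye effect and its change cannot be told apart. Between red-light Col-0 and dark pifQ both samples carried the same dye. The sources used here do not say how many dark Col-0 extracts served the 6 arrays, and where arrays shared one, the tests against dark Col-0 do not contain its spread.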

How the data were processed

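Two-colour arrays measured total RNA (2 μg per labelling) of 3 red-light Col-0 and 3 dark pifQ samples against dark Col-0. The authors deposited 1 log ratio per feature and array. The values were read as log2 ratios of Cy5 over Cy3, with dyes per the labels, because they reach from -5.63 to 7.85; the base is not stated, and every fold size rests on it. Limma is named per the submitters' processing notes; for background correction and normalization the sources used here name no method. Column medians lay between -0.0050 and -0.00036, so arrays appear centred. There are no intensities, so nothing tells dim or saturated spots from others, and precision is limited by how many arrays there are.

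The platform annotation gives 7440 of 45220 features 1 gene name and 0 several, which leaves 37780 unnamed here. All 7440 matched TAIR10.1 loci by gene identifier and stand for 7234 genes; several features of a gene were averaged, and each of the 12 hormone genes has 1. Coordinates are left out, since no build is named for the features. In R 4.3.3, limma 3.58.1 (lmFit, eBayes) fitted 1 coefficient per group to all 6 arrays, with two-sided tests and Benjamini-Hochberg adjustment over 7234 genes. The fit was tested on simulated data. The genes and hormone lists were chosen with earlier results of these data known. Named are the 5 genes, listed genes of sublists with up to 3 measured members, the 3 nearest genes of each and the measured markers; flanking genes were added after their values were seen.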

Additional observations from a re-analysis of the deposited data

How the results depend on the processing

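The decreases of IAA29, HAT2 and GID1C in red light and of IAA29 in pifQ passed in all 15 alternatives each. Replicate numbers did not pair the arrays: deviations of same-numbered arrays correlated at -0.18, -0.15 and -0.17 across genes, and no array correlated best with its own number. Red light replicates 1, 2 and 3 correlated best with pifQ replicates 3, 1 and 2, at 0.24, 0.18 and 0.26. Deviations from a group mean sum to 0, so these values constrain each other, and a pairing other than by number was not tested. With the replicate block, all-gene calls were 462 in pifQ and 120 for red light against pifQ, GID1C in pifQ (-0.48, adjusted p = 0.0921) and SPY in red light (-0.55, 0.0527) no longer passed, and 1 of the 5 genes and 1 of the 12 were called in pifQ. Over all features, calls numbered 8431, 1846 and 525 in red light, pifQ and red light against pifQ, and GID1B in red light (-0.66) had an adjusted p of 0.0504. Array weights gave 4508 calls in red light and 639 for red light against pifQ, where HAT2 (-1.07) passed, 1 of 5 and 1 of 12; in red light IAA18 (0.39) and GH3.17 (-0.20) also passed. In pifQ with array weights GID1C (-0.44) did not, leaving 1 and 1, and IAA18 (-0.039) and SLY2 (-0.022) turned sign. The pifQ arrays' own spread gave 443 calls, 1 of 5 and 1 of 12, without GID1C (-0.48). For red light against pifQ, equal spread gave 393 calls, 1 of 5 and 1 of 12 with HAT2 at -1.07; leaving out the 25% of genes with the smallest ratios, 1 of 5 and 1 of 11 with HAT2 at -1.02, where the filter picks genes by the tested ratio itself; and quantile normalization 74 calls, with IAA29 at 0.34.

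With each array left out in turn, all-gene calls ran between 1432 and 3001 in red light, 230 and 804 in pifQ and 61 and 563 for red light against pifQ. Calls among the 5 ran between 3 and 5, 1 and 2, and 0 and 1, and among the 12 between 3 and 7, 1 and 2, and 0 and 1. The log2 values ran between -0.86 and -0.52 for GID1B and -0.62 and -0.39 for EIN3 in red light, -0.55 and -0.38 for GID1C in pifQ, and -1.28 and -0.81 for HAT2 and -0.36 and 0.14 for IAA29 between red light and pifQ. Signs of values that passed nowhere turned for GH3.1 in red light (0.046, lowest -0.042), GH3.3 in pifQ (-0.036, highest 0.67), IAA18 (-0.067, highest 0.13), SLY1 (0.011, lowest -0.61) and SLY2 (-0.12, highest 0.24) in pifQ, and GH3.3 (-0.44 to 0.26) and GH3.17 (-0.0045 to 0.20) between red light and pifQ. The causes were not tested.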
